A study of Arabidopsis thaliana with 24 samples.

Results

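Seeds of the *Arabidopsis thaliana* mutant tim17-1 were compared with wild-type seeds (WT) after stratification, the cold and dark imbibition that prepares seed for germination. The comparison uses 6 of the 24 single-colour Affymetrix arrays of the series, those whose titles place them at 48 h of stratification (48 h S), and all 22746 probe sets that are not controls. The tim17-1 group is 3 arrays of seed of the mutant Attim17-1, which the labels give as 1 mutant line with no further allele, agent or transgene. The WT group is 3 arrays of Col-0 seed, and Col-0 is the background of both. Both groups were plated on MS medium at 80 mg of seed and held at 4 °C in darkness for 48 h, and RNA of whole seed was labelled with biotin from 400 ng. Ripening of the seed is recorded for both as 15 days in one place and 14 in another. The other 18 arrays hold the same genotypes as dry seed (0 h) and after stratification followed by 6 h or 24 h of continuous light at 22 °C (6 h SL, 24 h SL), with 3 arrays a group. The labels do not say that the arrays of a group came from separate seed lots, so the p-values below rest on the spread among these arrays alone, and that spread may be technical.

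TIM17 proteins are subunits of the translocase that moves nuclear-encoded precursors across the inner membrane of mitochondria. Dry seed holds stored transcripts for late embryogenesis abundant (LEA) proteins and storage proteins, which decline once the seed takes up water. During stratification the seed imbibes and starts transcription again, while germination waits for warmth and light. Growth of the embryo then needs cell wall loosening, for which expansins and xyloglucan enzymes are known.

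The deposited values are linear intensities, and differences are given as tim17-1 minus WT on the log2(value + 16) scale, with the standard error from limma's fit over 8 group means and 24 arrays. A probe set was called at a Benjamini-Hochberg adjusted p under 0.05 over all probe sets tested. The 6 arrays had medians of 26.3 to 27.6 in tim17-1 and 28.2 to 29.9 in WT, and upper quartiles of 246.4 to 247.9 in tim17-1 and 250.8 to 253.9 in WT, so neither pair of ranges overlapped. Between 45.8% and 46.2% of probe sets lay at or under 16 on each array. Root mean square deviations from the group mean ran from 0.0659 to 0.0855 log2 units over these arrays. The ratio of the 3′ to the 5′ control probe set was 2.95 to 3.404 in tim17-1 and 2.71 to 2.81 in WT for ubiquitin, 47.4 to 56.1 and 58.8 to 63.2 for actin, and 6.59 to 8.17 and 7.45 to 8.27 for glyceraldehyde-3-phosphate dehydrogenase, tim17-1 first in each pair. The ubiquitin and actin ratios moved with genotype in opposite directions, and their part in the results was not tested. Most measured markers of the tissue lists were near the floor, those of seed coat and endosperm, parts of whole seed, included. Of the measured markers, 16 of 17 for pollen, 3 of 3 for seed coat and 4 of 5 for endosperm averaged 16 or less in both genotypes. Of the list for root cap, vasculature and leaf only 4 were measured, and *SPCH*, *MUTE* and *FMA* averaged 16 or less too. The exceptions were *AGL65* (83.0 in tim17-1, 72.3 in WT), *IKU1* (57.1 in tim17-1, 62.1 in WT) and *FDH* (13876 in tim17-1, 13142 in WT). Markers were matched by symbol, so which gene *FDH* stands for was not checked. The *TIM17-1* transcript itself was not analysed here, so the genotype labels could not be checked by it. None of the 17 measured genes that lie within 20 positions of it in the gene order was called.

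After 48 h of stratification 82 probe sets were higher in tim17-1 in the limma fit, 0.361% of those tested, and 198 were lower, 0.87%. Both the counts and their balance depended on the weight of single arrays: with array weights 2242 were higher and 1864 lower, which turns the balance round. Most differences were small. The median size among the called probe sets was 0.35 log2 units for those higher and 0.46 for those lower, and 1 of the first and 2 of the second differed by at least 1 log2 unit. Without any regard to the test, all tim17-1 arrays lay above all WT arrays at 8.64% of probe sets and below them at 9.99%. The scaling between arrays moved the balance too, with 109 higher and 143 lower after cyclic loess and 101 and 130 after quantile normalization. Single arrays moved the counts as well: 221 were higher and 264 lower without tim17-1 replicate 3, against 28 and 73 without WT replicate 2, 40 and 101 without WT replicate 1, 53 and 153 without WT replicate 3, 53 and 82 without tim17-1 replicate 2, and 56 and 107 without tim17-1 replicate 1.

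In the fit without array weights the lower calls outnumbered the higher ones at every level but the weakest. Where the higher group mean was at most 16, 18 of 10284 probe sets were higher and 12 lower. Between 16 and 64, 9 of 2522 were higher and 54 lower, and between 64 and 256, 20 of 4210 were higher and 60 lower. Between 256 and 1024 the counts were 13 higher and 44 lower of 3624, and above 1024 they were 22 and 28 of 2106. The median difference over all probe sets was 0.01 log2 units.

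**Figure D1:**
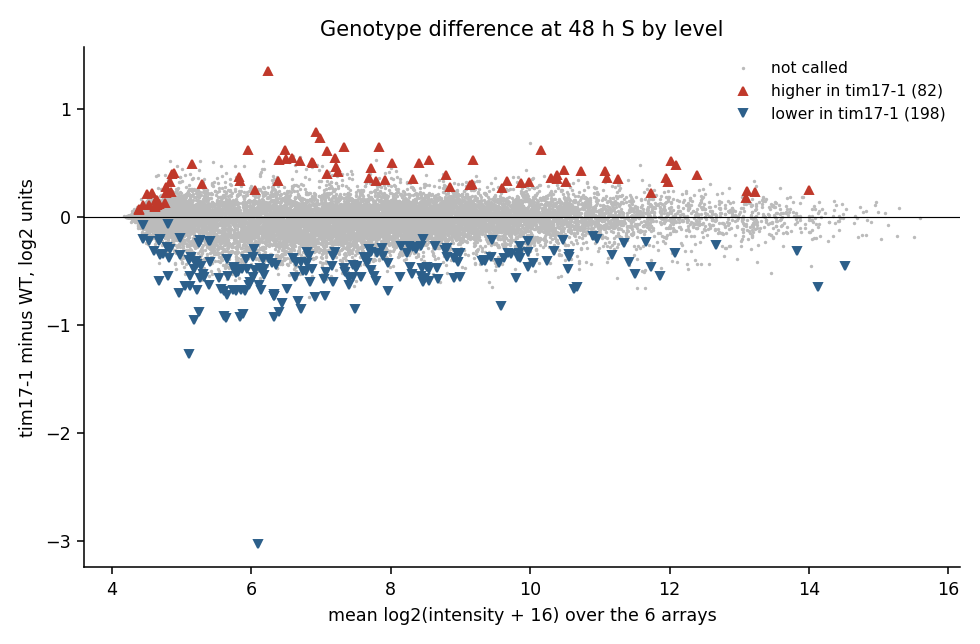
Difference between tim17-1 and WT at 48 h S in log2 units (vertical axis) against the mean log2(intensity + 16) over the 6 arrays (horizontal axis), 1 point per probe set. Upward triangles mark the 82 probe sets called higher in tim17-1, downward triangles the 198 called lower, and the lowest point, at -3.03, is *AT1G72800*.

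Of the called probe sets, 149 had exactly 1 gene in the platform annotation, 110 lower and 39 higher in tim17-1. For 83 lower and 41 higher ones no gene was listed, and 5 lower and 2 higher ones had several. The rankings of genes below leave those out. Of the 149, 29 carry a symbol beyond a locus code, and 28 of the 29 fell.

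The largest fall was that of *AT1G72800*, a protein-coding gene that the annotation used here names by locus only. It measured 13.6, 4.78 and 6.31 in tim17-1, against 163, 193.4 and 182.9 in WT. The 3 tim17-1 arrays were at the level of the weakest probe sets, while every WT array lay far above them. The difference was -3.03 ± 0.154 (SE, n = 3 each; limma, adjusted p = 9.01e-09). The same transcript was lower in tim17-1 at 0 h (-0.61, adjusted p = 0.0346) and at 6 h SL (-1.72, adjusted p = 1.51e-05), whereas at 24 h SL the difference of -0.33 was not called (limma, adjusted p = 0.361). Its mean in tim17-1 was 50.4, 8.23, 33.3 and 102 at 0 h, 48 h S, 6 h SL and 24 h SL, against 85.4, 179.8, 146.3 and 134.2 in WT. In WT the mean at 48 h S was above that of dry seed, and in tim17-1 it was below.

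The second largest fall was that of *AT1G43590*, annotated as a pseudogene. It measured 5.93, 6.29 and 6.26 in tim17-1, against 37.7, 37.4 and 37.4 in WT, a difference of -1.27 ± 0.111 (SE, n = 3 each; limma, adjusted p = 1.12e-05). It was also lower at 6 h SL (-0.88) and 24 h SL (-0.47), both called.

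Cell wall genes were among the named genes that fell. Of 16 measured expansin genes 3 fell and none rose, while for all probe sets 0.87% were called lower. *EXPA4*, an alpha-expansin of the family that loosens walls during cell growth, measured 11, 6.68 and 12.6 in tim17-1, against 30.3, 43.1 and 30.6 in WT. All tim17-1 arrays were below all WT arrays, and the difference was -0.95 ± 0.120 (SE, n = 3 each; limma, adjusted p = 0.000493). *EXPA9*, a second alpha-expansin, measured 498.4, 548.9 and 550.3 in tim17-1, against 669.2, 797.2 and 675.5 in WT. Its groups did not overlap either, with a smaller difference of -0.41 ± 0.0869 (SE, n = 3 each; limma, adjusted p = 0.0260), and the call was lost without WT replicate 2 or tim17-1 replicate 1 or 2 (limma, adjusted p up to 0.145). *EXLA1*, an expansin-like gene, measured 62.4, 29.8 and 62.9 in tim17-1, against 86.1, 109.6 and 100.6 in WT. The difference was -0.80 ± 0.161 (SE, n = 3 each; limma, adjusted p = 0.0188), and it was not called without WT replicate 2 or 3 (limma, adjusted p up to 0.0974).

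Of the other measured expansins, *EXPA8*, the brightest of them at this stage, stood at 4579, 4511 and 4637 in tim17-1, against 4176, 4570 and 4507 in WT. The groups overlapped, with a difference of 0.05 (95% interval -0.10 to 0.21). *EXPA15*, *EXPA20* and *EXPB1* were measured above the floor too, with differences of 0.26, -0.12 and 0.19 that were not called. The other 9 lay under 16 on all 6 arrays, with differences between 0.00 and 0.03.

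Of 14 measured xyloglucan and cellulose genes only *CSLC04* was called, beside 0.87% of all probe sets called lower. It encodes a glucan synthase that makes the backbone of xyloglucan. It measured 12.3, 11.8 and 12.0 in tim17-1, against 34.8, 39.0 and 33.1 in WT, and the groups were well apart. The difference was -0.88 ± 0.152 (SE, n = 3 each; limma, adjusted p = 0.00778). *XTH19*, a xyloglucan endotransglucosylase gene and the brightest of the list, stood at 5545, 4950 and 4759 in tim17-1, against 5584, 6216 and 6122 in WT, a difference of -0.23 that was not called (limma, adjusted p = 0.419).

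The stage at which these wall genes differed was not the same. *CSLC04* and *EXPA9* are transcripts that WT accumulates through germination, and at 24 h SL their differences were 0.02 and 0.00 and not called. *EXPA4* was also lower at 0 h (-0.49) and 6 h SL (-0.75), both called, and not at 24 h SL (0.26). *EXLA1*, which is high in dry seed, differed at 24 h SL (-0.79, limma, adjusted p = 0.00667) and not at 0 h (0.10) or 6 h SL (0.12). The difference at 48 h S lay below its mean over the other 3 stages for *CSLC04* (by -0.86 ± 0.175) and *EXPA4* (by -0.62 ± 0.139), both called, while the values for *EXLA1* (-0.61) and *EXPA9* (-0.31) were not. Both calls were lost without WT replicate 2, and that of *EXPA4* also without tim17-1 replicate 1 or 2 (limma, adjusted p up to 0.104). At 0 h *CSLC04* averaged 7.14 in tim17-1 and 4.91 in WT, near the floor, where little difference can show.

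**Figure D2:**
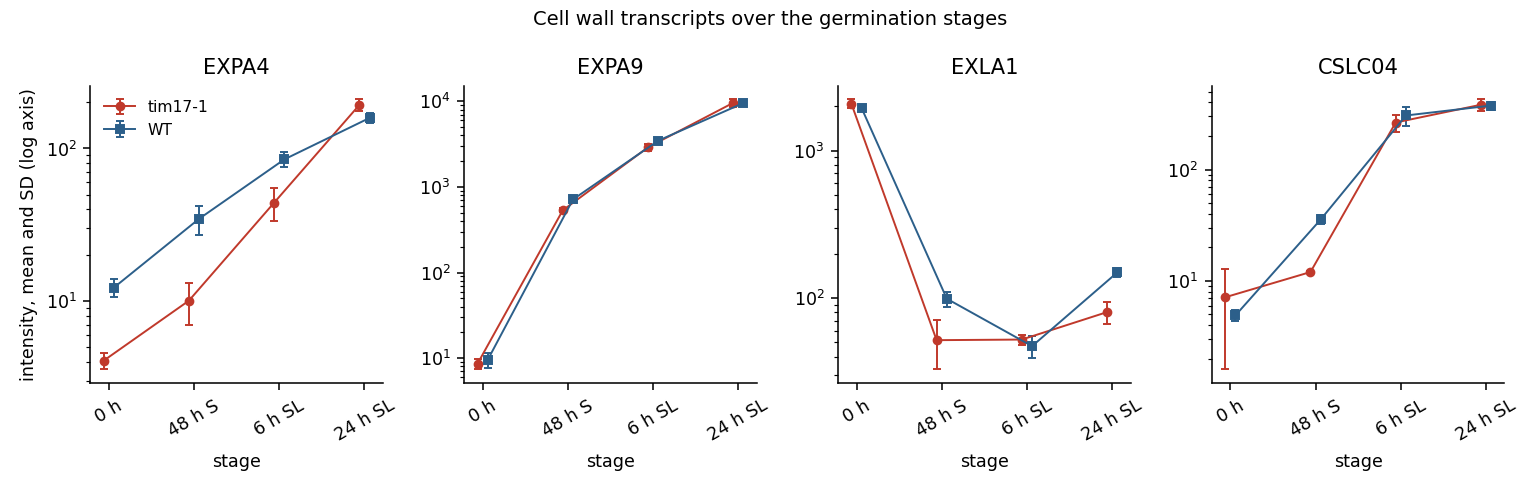
Mean intensity with SD (vertical, log axis; 3 arrays a group) of 4 cell wall genes at the 4 stages (horizontal axis), tim17-1 as circles and WT as squares. At 48 h S every tim17-1 mean is below the WT mean, and for *CSLC04* the means are 12.0 in tim17-1 and 35.6 in WT.

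Genes of other roles made up the rest of the largest falls. *FHL*, which helps the photoreceptor phytochrome A into the nucleus, measured 17.1, 15.0 and 27.9 in tim17-1, against 47.5, 66.3 and 41.8 in WT. No array of one genotype reached the range of the other, and the difference was -0.91 ± 0.178 (SE, n = 3 each; limma, adjusted p = 0.0157). The call was lost without WT replicate 2 or tim17-1 replicate 1 or 2 (limma, adjusted p = 0.0642 to 0.0916). At the other stages its differences were between -0.01 and 0.05, so that the 48 h S difference stood apart from them by -0.94 ± 0.205 (SE; limma, adjusted p = 0.0239), a call lost without any 1 of WT replicates 1 and 2 and tim17-1 replicates 1 and 2 (limma, adjusted p up to 0.0987). In WT its mean was 10.3 in dry seed, 51.9 at 48 h S and 9.25 at 6 h SL. *FHL* was 1 of only 2 measured light signalling genes, of 34 listed. The other, *HYH*, a bZIP transcription factor of the light response, had a difference of 0.37 that was not called (limma, adjusted p = 0.304).

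*UGT76C1*, a glucosyltransferase that inactivates cytokinins, measured 19.6, 26.8 and 32.6 in tim17-1, against 60.6, 55.9 and 38.9 in WT, a difference of -0.68 ± 0.117 (SE, n = 3 each; limma, adjusted p = 0.00785). *WLIM1*, which bundles actin filaments, measured 14.9, 13.1 and 12.6 in tim17-1, against 27.0, 31.1 and 36.0 in WT, a difference of -0.68 ± 0.0804 (SE, n = 3 each; limma, adjusted p = 0.000273). *MSRB5*, a methionine sulfoxide reductase that repairs oxidised protein, measured 25.1, 14.1 and 31.9 in tim17-1, against 57.8, 45.1 and 42.5 in WT, a difference of -0.72 ± 0.141 (SE, n = 3 each; limma, adjusted p = 0.0164). For all 3 genes the groups did not overlap, although the highest tim17-1 array of *UGT76C1* and *MSRB5* came close to the lowest WT array. The *MSRB5* call was lost without WT replicate 1 or 2 or tim17-1 replicate 2 (limma, adjusted p up to 0.0827).

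Genes that the annotation names by locus only completed the list of the largest falls. *AT5G01870* fell by 0.93 and was as low relative to WT at 6 h SL (-0.95) and 24 h SL (-0.83), both called. *AT1G66760* fell by 0.70 at 48 h S and by 0.92 at 0 h. *AT3G03320* (-0.74), *AT5G38780* (-0.73) and *AT3G05320* (-0.68) were not called at any other stage, but *AT5G38780* was near the floor at 24 h SL (6.39 in tim17-1, 6.26 in WT). Of these 5 only *AT3G03320* kept its call without any 1 array. WT replicate 2 decided *AT5G01870*, WT replicates 1 and 2 and tim17-1 replicate 2 decided *AT1G66760* and *AT5G38780*, and WT replicate 1 and tim17-1 replicate 2 decided *AT3G05320*.

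Among bright transcripts, those with a higher group mean of at least 1000, the largest falls were those of *AT5G01670* and *AT5G02580*, followed by *AT4G27530* and *M17*. *AT5G01670* measured 1210, 1203 and 1292 in tim17-1, against 2127, 1865 and 1940 in WT, a difference of -0.67 ± 0.109 (SE, n = 3 each; limma, adjusted p = 0.00586). *AT5G02580* measured 1322, 1247 and 1276 in tim17-1, against 1935, 2192 and 1941 in WT, a difference of -0.65 ± 0.0974 (SE, n = 3 each; limma, adjusted p = 0.0030). For both, the arrays of a genotype lay close together and the genotypes far apart. *AT4G27530* had a difference of -0.53 whose call was lost without any 1 of the 6 arrays (limma, adjusted p = 0.0518 to 0.145), and it was higher in tim17-1 at 24 h SL (0.52, limma, adjusted p = 0.0181).

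**Figure D3:**
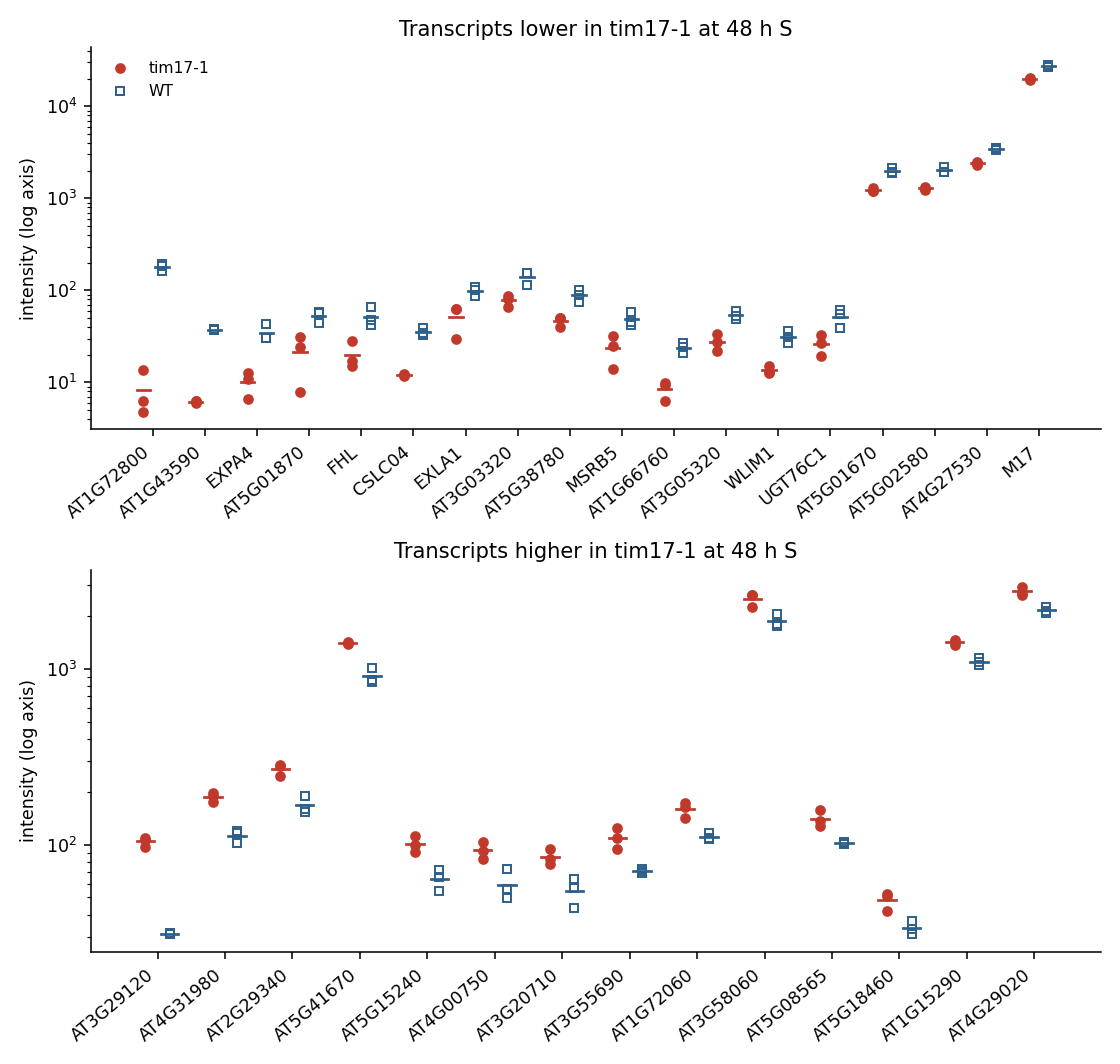
Intensity of each array at 48 h S (vertical, log axis) for the named transcripts lower in tim17-1 (upper panel) and higher in tim17-1 (lower panel), with tim17-1 as filled circles left of WT as open squares and a bar at each group mean. No gene shown has overlapping genotypes, and *AT1G72800* has the widest gap, with means of 8.23 in tim17-1 and 179.8 in WT.

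The largest rise was that of *AT3G29120*, annotated as a pseudogene and measured by a probe set that can match several transcripts. It measured 109.7, 106.5 and 97.1 in tim17-1, against 30.8, 31.3 and 31.1 in WT, a difference of 1.35 ± 0.105 (SE, n = 3 each; limma, adjusted p = 2.65e-06). It was as high relative to WT at 0 h (1.702), 6 h SL (1.701) and 24 h SL (1.24), each called, and its 48 h S difference did not stand apart from the other stages (-0.19; limma, adjusted p = 0.500). Of 989 measured transposable element genes and pseudogenes 4 rose and 1 fell, beside 0.361% of all probe sets higher and 0.87% lower. A value above 0 was found for 937 of the 989, beside 61.9% of all probe sets. The median of the list was 0.017, beside 0.012 for all probe sets whose higher group mean was at most 16. The list's own median intensity was under 16 on each array, so its excess of values above 0 is a small shift near the floor. Among all probe sets with a mean of at least 64 only 41.7% had a value above 0. Values above 0 were thus more frequent among weak probe sets in general, and the shift was not confined to this list.

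All other named rises were below 0.7 log2 units. *AT5G41670*, listed under the oxidative pentose phosphate pathway, which supplies NADPH, was the largest among bright transcripts. It measured 1397, 1389 and 1419 in tim17-1, against 862.6, 843.7 and 1013 in WT, a difference of 0.62 ± 0.0927 (SE, n = 3 each; limma, adjusted p = 0.00270). Its differences at 0 h, 6 h SL and 24 h SL were between -0.14 and -0.02 and not called, and the difference at 48 h S stood apart from their mean by 0.70 ± 0.107 (SE; limma, adjusted p = 0.00230). The other 2 measured genes of that list, *AT1G64190* and *AT3G02360*, had differences of 0.17 and -0.01 that were not called.

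*AT4G31980* measured 173.7, 187.6 and 195.2 in tim17-1, against 116.2, 119.1 and 101.9 in WT, a difference of 0.65 ± 0.139 (SE, n = 3 each; limma, adjusted p = 0.0265) that was lost without any 1 array (limma, adjusted p = 0.0564 to 0.0986). *AT2G29340* measured 284.9, 279.5 and 246.8 in tim17-1, against 160.1, 152.3 and 188.8 in WT, a difference of 0.65 that was also called at 6 h SL (0.75). At 48 h S its call was lost without WT replicate 1 or 2 or tim17-1 replicate 1 or 2 (limma, adjusted p up to 0.0972). *AT5G08565*, whose synonym in the annotation is *SPT4-1*, a subunit of a transcription elongation factor, measured 136.8, 127.9 and 156.5 in tim17-1, against 103.7, 101.0 and 101.6 in WT. Its difference was 0.40 ± 0.0805 (SE, n = 3 each; limma, adjusted p = 0.0186), lost without any 1 array except tim17-1 replicate 2 (limma, adjusted p up to 0.0775).

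The remaining named rises lay between 0.35 and 0.55. *AT5G15240*, *AT4G00750* and *AT3G55690* rose by 0.55, 0.54 and 0.52 at 48 h S and were not called at another stage. *AT4G00750* was near the floor at 24 h SL (5.59 in tim17-1, 5.98 in WT). *AT3G20710* rose by 0.53 and was higher at 0 h (0.51) and 6 h SL (0.73) too. *AT4G29020* rose by 0.35 at 48 h S, while it was lower in tim17-1 at 6 h SL (-0.33) and 24 h SL (-0.34), both called. *AT1G72060*, *AT3G58060*, *AT5G18460* and *AT1G15290* rose by 0.46, 0.43, 0.37 and 0.36. Of these 9 only *AT3G55690* kept its call without any 1 array. WT replicate 3 decided *AT5G15240* and WT replicates 1 and 2 *AT4G29020*, while the other 6 calls were lost in 4 or 5 of the 6 fits without 1 array.

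LEA proteins protect drying seed. Of 13 measured LEA and desiccation genes 2 fell and none rose at 48 h S, beside 0.87% of all probe sets called lower. Of the 13, 12 had a value below 0, and the median was -0.29. The count of genes that fell was 1 without any 1 array except tim17-1 replicate 3. Among all probe sets with a mean of at least 64 the median was -0.03 and 58.3% lay below 0. The tim17-1 arrays lay wholly below the WT arrays for 11 of the 13 genes and wholly above for 1, beside 9.99% and 8.64% of all probe sets. The summed intensity of the list was 154643, 147287 and 145490 in tim17-1, against 170978, 172837 and 172853 in WT, so the arrays of the genotypes did not overlap.

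*M17*, an LEA protein gene of seed, measured 20579, 19331 and 19918 in tim17-1, against 28355, 26564 and 26905 in WT. The difference was -0.45 ± 0.0934 (SE, n = 3 each; limma, adjusted p = 0.0219), and it was lost without any 1 of the 6 arrays except tim17-1 replicate 3 (limma, adjusted p up to 0.0986). *AtLEA4-1* measured 13306, 12832 and 12898 in tim17-1, against 15816, 16109 and 16684 in WT. Its difference was -0.32 ± 0.0527 (SE, n = 3 each; limma, adjusted p = 0.00629), and its call was kept without any 1 of the 6 arrays. The next members had differences of -0.43 (*AT2G42560*), -0.42 (*AT4G21020*), -0.42 (*AT3G53040*) and -0.37 (*AT5G44310*), none called. *LTI30*, a dehydrin gene, had -0.22 and *LEA18* had -0.19, not called either. The exception was *M10*, a second small LEA gene, at 34658, 33230 and 32732 in tim17-1, against 30203, 31102 and 29963 in WT, a difference of 0.14 that was not called (limma, adjusted p = 0.420).

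The direction of this list differed between stages. Its median was -0.03 at 0 h, -0.29 at 48 h S, 0.31 at 6 h SL and 0.42 at 24 h SL. None of the 13 was called at 0 h, while 2 were higher at 6 h SL and 9 at 24 h SL, and all 13 had a value above 0 at both light stages. Tested gene by gene against the mean of the other 3 stages, the 48 h S difference was lower for 6 of the 13, with a median of -0.50. Those 6 were *AT3G53040* (-0.82), *AT5G44310* (-0.66), *AT3G17520* (-0.63), *AtLEA4-1* (-0.50), *M17* (-0.49) and *LEA18* (-0.36). The count became 3 without any 1 of the WT arrays or without tim17-1 replicate 2. For that contrast 1.09% of all probe sets were called lower and 0.791% higher. The share called in tim17-1 against WT was 1.32% higher and 2.33% lower at 0 h, 0.51% and 0.769% at 6 h SL, and 1.59% and 2.73% at 24 h SL.

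Of 8 measured genes for seed storage and oil body proteins none was called at any of the 4 stages. At 48 h S 7 of the 8 had a value below 0, beside 58.3% of all probe sets with a mean of at least 64. The median was -0.20, and 3 of the 8 were lower at an unadjusted p under 0.05 in limma's fit. The summed intensity was 45894, 46616 and 48327 in tim17-1, against 53376, 52422 and 52659 in WT, with no overlap. *PAP85*, a vicilin-like storage protein gene, measured 25121, 25745 and 27503 in tim17-1, against 29273, 29273 and 29504 in WT, a difference of -0.17 that was not called (limma, adjusted p = 0.686). *OLEO3*, which encodes an oleosin of the oil body surface, measured 359.9, 369.8 and 374.2 in tim17-1, against 415.9, 418.8 and 444.4 in WT, a difference of -0.20 that was not called (limma, adjusted p = 0.373). *AT4G36700* had -0.44 and was the 1 gene of the list whose difference at 48 h S stood apart from the other stages (-0.59; limma, adjusted p = 0.0386). No gene of the list was called in that test without any 1 array except tim17-1 replicate 3. The medians at 0 h, 6 h SL and 24 h SL were -0.01, 0.13 and 0.18.

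Transcripts of the plastid genome, which encodes part of the photosynthetic and gene expression machinery of plastids, had values below 0 in most cases, and 1 measured gene was called. Measured were 69 of 129 listed genes, and probe sets that match several genes were not counted. Of the 69, 64 had a value below 0, beside 38.1% of all probe sets and 58.3% of those with a mean of at least 64. The median was -0.27, and for 35 all tim17-1 arrays lay below all WT arrays, beside 9.99% of all probe sets. The 1 call stands beside 0.87% of all probe sets called lower. *petB*, which encodes cytochrome b6, measured 1271, 1225 and 1478 in tim17-1, against 1800, 1720 and 1520 in WT, a difference of -0.34 ± 0.0805 (SE, n = 3 each; limma, adjusted p = 0.0481). The lowest values were those of *rpl32* (-0.65), *psbT* (-0.56) of photosystem II, *rps16* (-0.53), *accD* (-0.50) and *rps3* (-0.48), none called. The rpl and rps genes encode plastid ribosomal proteins. *rpl32* measured 3085, 2602 and 2028 in tim17-1, against 4662, 4451 and 3078 in WT, so WT replicate 3 lay just below the highest tim17-1 array and the groups overlapped. *psbA*, the gene of the photosystem II reaction centre protein D1, had 0.19 and *petN* 0.20.

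The summed plastid intensity was 95347, 91641 and 89086 in tim17-1, against 120701, 118082 and 104907 in WT. WT replicate 3 lay closest to the mutant, and without it the median of the 69 genes was -0.36. Lower values were not particular to 48 h S, with medians of -0.02 at 0 h, -0.16 at 6 h SL and -0.14 at 24 h SL. None of the 69 genes was called in the test of the 48 h S difference against the other stages. In whole seed, fewer plastids or cells and less RNA per cell cannot be told apart.

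**Figure D4:**
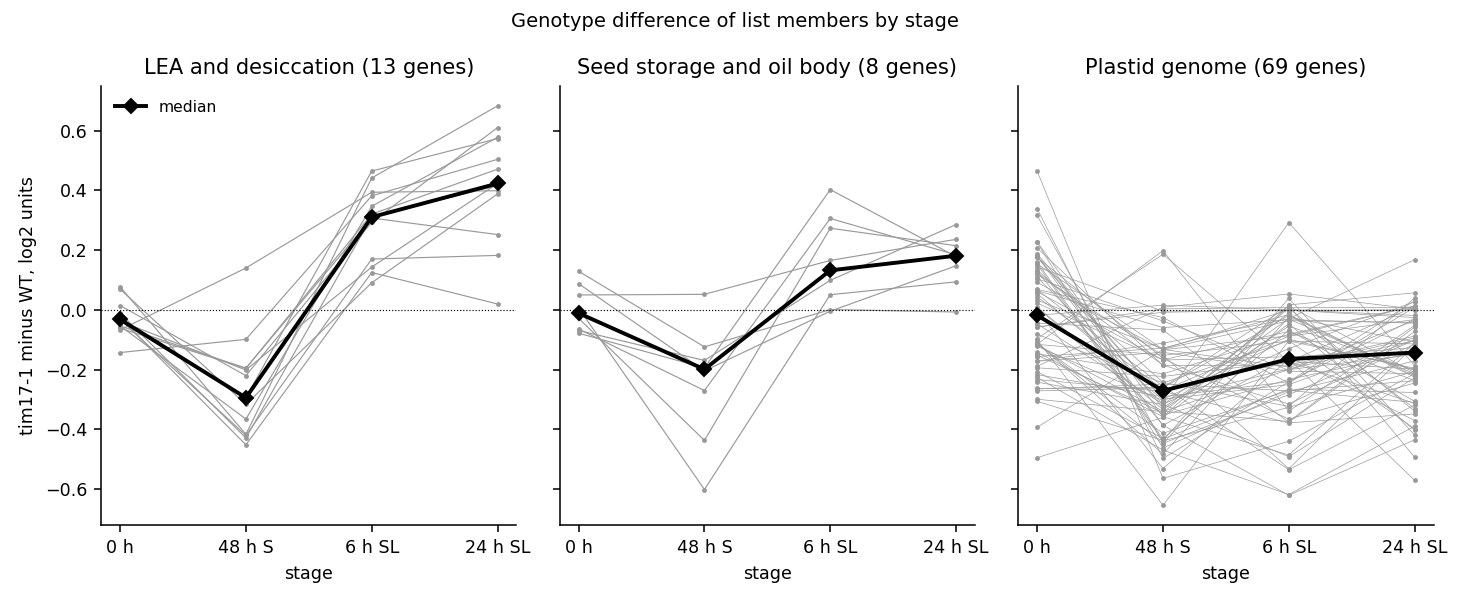
Difference between tim17-1 and WT in log2 units (vertical axis) at the 4 stages (horizontal axis) for each measured gene of the LEA, seed storage and plastid genome lists (thin lines), with the list's median in black. The LEA median is -0.29 at 48 h S and 0.42 at 24 h SL, and the plastid median is lowest at 48 h S.

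**Figure D5:**
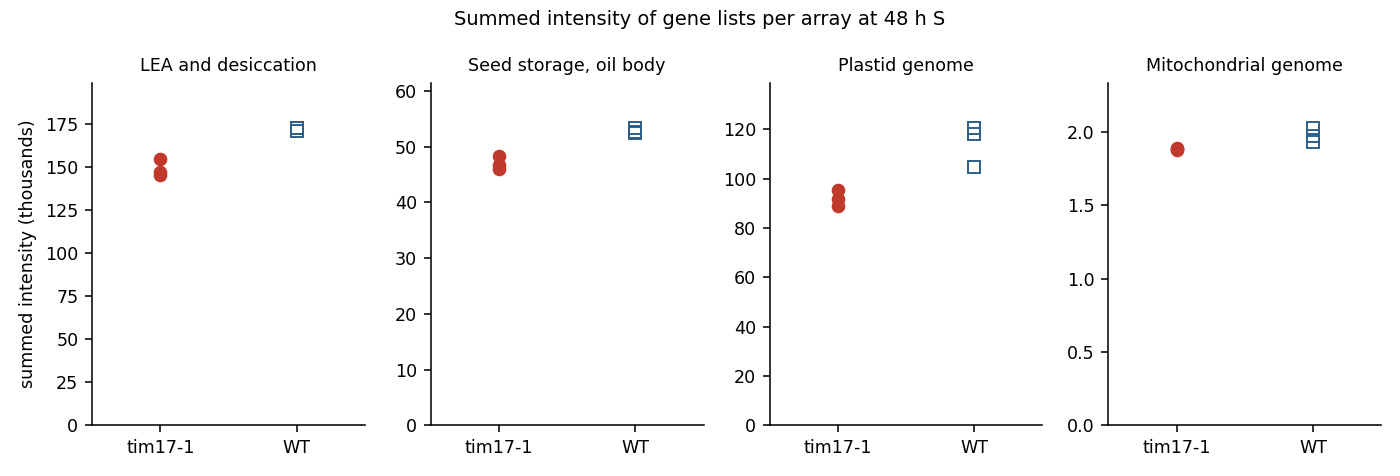
Summed intensity of 4 gene lists on each array at 48 h S in units of 1000 (vertical axis, from 0), tim17-1 left and WT right. In each of the 4 lists the 3 tim17-1 arrays are below the 3 WT arrays, and the sums are led by the brightest probe sets. Some lists not shown had sums wholly above WT, such as oil mobilisation, gibberellin and pentose phosphate pathway. Others were wholly below, such as cold response. Of all single probe sets 9.99% lay wholly below WT and 8.64% wholly above.

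The lists for mitochondria, the organelle of the TIM17 proteins, held no called gene at 48 h S among the genes measured. Measured were 16 of 33 listed genes of the mitochondrial genome and 6 of 21 of the respiratory chain. For the alternative respiratory pathway they were 5 of 14, and for import 2 of 38. Probe sets that the annotation did not tie to a listed gene were not counted, so a call among them would not show here. Of 16 measured genes of the mitochondrial genome none was called (limma; 4 were lower at an unadjusted p under 0.05), with a median of -0.08. *cox2*, a cytochrome oxidase subunit, measured 219.1, 212.5 and 234.0 in tim17-1, against 248.1, 249.6 and 259.4 in WT, a difference of -0.17 (limma, adjusted p = 0.333). *cox1* measured 521, 533.5 and 517.6 in tim17-1, against 504.9, 470.8 and 528.9 in WT, with overlapping groups. Of 6 nuclear genes of the respiratory chain none was called (limma; none at an unadjusted p under 0.05), and *CYTC-1*, a cytochrome c gene, had a difference of -0.01 with a 95% interval of -0.14 to 0.12. Of 5 genes of the alternative respiratory pathway none was called (limma; *NDB3*, an external NAD(P)H dehydrogenase gene, was lower at an unadjusted p under 0.05). *NDB3* measured 10.9, 13.9 and 25.1 in tim17-1, against 26.1, 25.7 and 26.9 in WT, a difference of -0.39 (limma, adjusted p = 0.218). Of 2 measured import genes, *MPPBETA*, a subunit of the presequence peptidase, had -0.01, and *AT1G50400* had 254.1, 267.6 and 267.9 in tim17-1, against 184.2, 190.9 and 210.2 in WT, a difference of 0.41 that was not called (limma, adjusted p = 0.0741).

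Genes of hormone, cold and light responses gave few calls, but their lists were measured only in part. Measured were 6 of 36 listed gibberellin genes, 6 of 35 for cold response, 3 of 30 for heat shock and 3 of 21 for the clock. For photosynthesis and greening they were 10 of 62, for beta-glucosidases and endoplasmic reticulum bodies 26 of 51, and for oil mobilisation 3 of 29. None was called in limma's fit among 6 measured gibberellin genes (1 higher at an unadjusted p under 0.05), 6 cold response genes (1 lower), 3 heat shock genes (0), 3 clock genes (2 lower), 10 photosynthesis and greening genes (1 higher and 1 lower), 26 beta-glucosidase and endoplasmic reticulum body genes (1 higher and 1 lower) or 3 oil mobilisation genes (1 lower). *GI*, a clock gene, measured 35.05, 35.9 and 39.4 in tim17-1, against 54.9, 57.0 and 47.5 in WT, a difference of -0.39 that was not called (limma, adjusted p = 0.0855), although it stood apart from the other stages by -0.56 (limma, adjusted p = 0.0213). *ICL*, isocitrate lyase of the glyoxylate cycle that uses stored oil, measured 23380, 23156 and 24461 in tim17-1, against 21425, 21607 and 22160 in WT, a difference of 0.12 that was not called (limma, adjusted p = 0.605). Of 13 measured glutathione transferase genes, which conjugate glutathione to reactive compounds, *GSTU20* fell, beside 0.87% of all probe sets. It measured 30.3, 33.0 and 46.0 in tim17-1, against 52.1, 62.6 and 55.7 in WT, a difference of -0.48 ± 0.0964 (SE, n = 3 each; limma, adjusted p = 0.0181).

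To see how the 48 h S calls lie on the course of germination, probe sets were sorted by WT arrays that the comparison does not use, from dry seed to 24 h SL. Of 4507 probe sets that WT raised by at least 1 log2 unit, 67 were lower in tim17-1 at 48 h S and 18 higher. Of 3688 that WT lowered by as much, 78 were lower and 14 higher, and of the other 14551, 53 were lower and 50 higher. The shares called lower were 1.49%, 2.11% and 0.364%, so lower calls were found among transcripts of both directions. Single arrays moved these counts: the lower calls were 18 to 91 for the raised and 29 to 97 for the lowered probe sets without 1 array, and fewest for both without WT replicate 2. They were 32 and 38 without WT replicate 1, 28 and 44 without tim17-1 replicate 1, and 25 and 35 without tim17-1 replicate 2. The share called higher was 0.399%, 0.38% and 0.344%. Among probe sets with a mean of at least 64 the shares called lower were 1.65%, 2.37% and 0.706%, and the medians -0.02, -0.05 and -0.02.

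The difference between genotypes at 48 h S was tested against its mean over the other 3 stages. It was above that mean for 180 probe sets and below it for 248. Of the 198 probe sets lower at 48 h S, 118 were also called lower in this test, and of the 82 higher ones 50 were called higher. The test contains the 48 h S difference by which these probe sets were called. A large overlap therefore follows from that choice and is no second test of them. At 24 h SL 14 of the 198 were called lower and 17 were called higher in tim17-1. At 6 h SL 18 were called lower and 3 higher, and at 0 h 10 were lower and 3 higher. Their median difference at 0 h, 6 h SL and 24 h SL was 0.01, -0.04 and 0.01.

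Some of the largest stage differences belonged to transcripts not called at 48 h S itself. *AT5G45310* measured 1043, 1072 and 1169 in tim17-1, against 1733, 1631 and 1489 in WT, and its difference was -0.56 at 48 h S and 0.17, 0.60 and 0.34 at 0 h, 6 h SL and 24 h SL. *AT2G34315* had -0.43 at 48 h S and was higher in tim17-1 at 6 h SL (0.80) and 24 h SL (0.58), and *AT3G21380* had -0.34 and was higher at 6 h SL (0.91) and 24 h SL (0.65). On the other side, *MT1C*, a metallothionein gene, measured 2712, 2665 and 2688 in tim17-1, against 2072, 2196 and 2312 in WT, a difference of 0.29 that was not called, beside a called -1.10 at 0 h. *AT2G45180* had 0.36 at 48 h S and was lower in tim17-1 at 24 h SL (-1.03). *AT4G23680* had 0.30 at 48 h S and was lower at 0 h (-1.34) and 24 h SL (-0.71), and *AT3G20790* had 0.34 with no call at another stage. For *AT2G25450* the contrast came from dry seed alone, with -2.50 at 0 h and 0.00 at 48 h S, where it was near the floor in both genotypes (7.05 in tim17-1, 7.01 in WT).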

How the data were processed

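The authors deposited linear intensity values, a column per array. The submitters' processing notes name MAS5, RMA and Partek without versions, and the sources used here do not say which of them gave these values or how arrays were scaled. No detection call came with them. Sample titles gave the groups. For dry seed the labels state 15 days of ripening in one place and 14 in another. The 64 control probe sets entered no test. Genes were named through the platform annotation and a RefSeq list of assembly GCF_000001735.4 (TAIR10.1): 13513 probe sets had 1 gene, 503 several and 8730 were not listed. Gene start coordinates served only to order the genes near *TIM17-1*, and no sequences were used.

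The deposited values were taken to log2(value + 16), an offset that understates changes of weak transcripts. With limma 3.58.1 (R 4.3.3, with version 1.17.8 of data.table), 8 group means were fitted over 24 arrays with empirical Bayes moderation, and p-values were adjusted by Benjamini-Hochberg over 22746 probe sets. All adjusted p-values are limma's. With 3 arrays a group an exact permutation test reaches p = 0.1 at best, so none was used. The procedure was tested on simulated data. Named genes are the 14 largest rises and 14 largest falls among called probe sets with 1 gene, the 4 largest each way with a group mean of at least 1000, called list members, and the 6 largest stage differences each way. In lists the brightest probe set stands for a gene. A listed gene counts as measured only where a probe set has it as its 1 gene in the annotation, so many listed genes are left out. *petB*, *GSTU20* and list members without a call are given outside that rule and were chosen after their values were seen. Members and lists were chosen with earlier results of these data known. Tables and figures used Python 3.11.15, pandas 2.3.3 and matplotlib 3.10.9. The number of arrays limits the precision.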

Additional observations from a re-analysis of the deposited data

Results flagged for a closer look

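Of the 42 named genes, 31 had a genotype difference at 48 h S that differed from its mean over 0 h, 6 h SL and 24 h SL in limma's fit, given here as the first less the second in log2 units. Over all probe sets 0.791% were called above that mean and 1.09% below it. The genes were named for their 48 h S difference, which is part of this contrast, or for the contrast itself. The count of 31 thus follows largely from that choice. Some of these genes were near the floor in both genotypes at another stage, where little difference can show. Examples are *FHL* at 0 h and 6 h SL, *CSLC04* and *WLIM1* at 0 h, and *AT5G38780* and *AT4G00750* at 24 h SL. Groups of 3 arrays were not examined for outlying samples.

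Negative values were -2.14 for *AT1G72800*, -0.82 for *AT1G43590*, -0.62 for *EXPA4*, -0.94 for *FHL*, -0.86 for *CSLC04*, -0.85 for *AT3G03320* and -0.83 for *AT5G38780*. *WLIM1* had -0.60, *UGT76C1* -0.71, *AT5G01670* -0.86, *AT5G02580* -0.65 and *AT4G27530* -0.83. *M17* had -0.49 and *AtLEA4-1* -0.50, and *AT5G45310*, *AT2G34315* and *AT3G21380* had -0.93, -0.91 and -0.88.

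The others were positive. They were 0.85 for *AT2G25450*, 0.75 for *MT1C*, 0.98 for *AT4G23680*, 0.75 for *AT3G20790*, 0.52 for *AT4G29020*, 0.91 for *AT2G45180* and 0.50 for *AT1G15290*. *AT5G18460* had 0.49, *AT5G08565* 0.39, *AT1G72060* 0.54 and *AT3G55690* 0.60. *AT4G00750* had 0.61, *AT5G15240* 0.55 and *AT5G41670* 0.70.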

How the results depend on the processing

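All 34 named genes called at 48 h S kept their sign in every alternative run, and 4 kept their call in all of them (*AT1G72800*, *AT1G43590*, *WLIM1* and *AT3G29120*). The kept sign is no test of these genes. Their arrays did not overlap between genotypes, so leaving out 1 array could not turn it. Several other runs changed only the estimate of the spread and left the difference as it was. Counts at 48 h S became 2242 higher and 1864 lower with array weights, more higher than lower, where tim17-1 replicate 1 had a weight of 5.23. After quantile normalization they were 101 and 130. With only the 48 h S arrays they were 60 and 118. Of those, only 18 higher and 46 lower ones were also called in the reported fit, and 21 of the 34 named calls were lost. They were 33 and 93 with the replicate block, 26 and 69 of them shared with the reported fit, and 21 of the 34 named calls were lost there too. Whether same-numbered arrays belong together is not known here. At 48 h S their deviations correlated at 0.0869, -0.0378 and 0.0910, which does not settle it. Leaving out 1 array gave 28 to 221 higher and 73 to 264 lower. The stage difference gave 80 to 260 higher and 120 to 283 lower without 1 array, 131 and 135 with the replicate block, and 1528 and 1292 with array weights. For these 4 counts the other alternatives, arrays left out aside, stayed within 1.5 times the reported value. The lower calls among probe sets that WT raised moved further, to 43 after cyclic loess, 38 after quantile normalization, 605 with array weights, 39 with the replicate block and 34 with only the 48 h S arrays. Among those that WT lowered they became 132 at a mean of at least 64, 569 with array weights and 30 with the replicate block. Stage differences that were not called changed sign in 2 genes: *AT5G01870* had 0.0608 with log2(value + 64), and *AT3G20710* had -0.0972 with log2(value + 1), -0.0898 with array weights and -0.0945 to 0.113 without 1 array. LEA genes lower at 48 h S numbered 1 or 2 without 1 array and 0 with the replicate block. The cause of these shifts was not tested.

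No detection call came with the intensities, so how far weak values lie above background is not known here.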

Other observations

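Named genes outside the naming rule were called as well, and those given here were chosen after their values were seen. *EXO*, which promotes growth downstream of brassinosteroids, measured 55.8, 47.0 and 68.1 in tim17-1, against 107.9, 98.0 and 91.5 in WT, a difference of -0.67 ± 0.120 (SE, n = 3 each; limma, adjusted p = 0.0106). It was -0.67 at 6 h SL and -0.92 at 24 h SL. The tubulin genes *TUB5* and *TUA6* fell by 0.47 and 0.34. *EEL*, a bZIP factor that acts on LEA genes of the Em type, measured 48.0, 29.4 and 30.9 in tim17-1, against 67.7, 58.7 and 60.0 in WT, a difference of -0.60 ± 0.115 (SE, n = 3 each; limma, adjusted p = 0.0150). *COR27*, a cold-induced gene, measured 126.2, 141 and 156 in tim17-1, against 227.3, 252.4 and 169.9 in WT, a difference of -0.55 ± 0.125 (SE, n = 3 each; limma, adjusted p = 0.0367). *SEC10*, an exocyst gene, fell by 0.29 and *SEC22*, a SNARE gene, by 0.27. *MCCA*, a subunit of the mitochondrial enzyme of leucine breakdown, fell by 0.45. *SAT32*, named for salt tolerance, rose by 0.33 and was the 1 gene with a symbol to do so.

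Along the locus codes of chromosome 5, 6 of 63 measured genes between *AT5G01610* and *AT5G02690* fell and none rose, against 27 lower and 10 higher of 2982 measured genes with an AT5G code. The stretch was chosen after its values were seen. The 6 were *AT5G01870* (-0.93), *FHL* (-0.91), *AT5G01670* (-0.67), *AT5G02580* (-0.65), *EXPA9* (-0.41) and *AT5G02280* (-0.36). The median of the 63 genes was 0.01.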
